A study of Rattus norvegicus with 12 samples.

Results

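The genes described here are 7 genes of retinoid (vitamin A) handling, measured in cultured rat hepatocytes: Rbp4, Ttr, Rdh16, Aldh1a1, Cyp26a1, Rarb and Rxra. They were found on the array by gene symbol or an older symbol, or by the array's description of the transcript where it lay on the same chromosome. This gave 11 of 41012 probes, 9 by name and 2 by description, for 7 of 35530 distinct gene names on the array. Rdh16 is listed on the array under its older symbol Rdh2, and a further probe, described as similar to retinol dehydrogenase type II, was counted with it. Rarb likewise has a probe described as similar to retinoic acid receptor beta-2. All 11 probes passed the filter on dim probes, which keeps a probe if some group measured it well above background on each of its 3 arrays.

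The cells came from livers of Sprague-Dawley rats aged 11 weeks and were plated for 24 h, kept without serum for 24 h, and then treated for 6 h. The 4 groups, each of 3 samples, were female dexamethasone, female vehicle, male dexamethasone and male vehicle, where dexamethasone, a synthetic glucocorticoid, was given at 100 nM (the labels write "nm") and the vehicle was 0.01% ethanol. RNA of each sample went on a separate 1-colour Agilent array, 12 in all. Sex was taken from the sample titles, because a separate field of the labels reads male for every sample, and the labels do not say whether replicates came from separate animals or cultures, so that p-values measure the spread between these samples only.

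Retinol leaves the liver bound to retinol binding protein (Rbp4), which travels in plasma in a complex with transthyretin (Ttr). Inside cells retinol is oxidised to retinal by short-chain dehydrogenases such as Rdh16, retinal is oxidised to retinoic acid by aldehyde dehydrogenases such as Aldh1a1, and retinoic acid is broken down by cytochromes P450 of the Cyp26 family. Retinoic acid acts through nuclear receptors, the retinoic acid receptors (Rarb among them) paired with retinoid X receptors (Rxra among them), and both Cyp26a1 and Rarb are well-known genes switched on by retinoic acid itself.

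The arrays lay on 3 slides of 4. All female dexamethasone arrays were on slide 3 with female vehicle replicate 3. Female vehicle replicates 1 and 2 shared slide 2 with replicates 2 and 3 of male dexamethasone, whose replicate 1 was on slide 1 together with all of male vehicle. Probes well above background made up 45.7% to 66.5% of those on slide 1, 74.8% to 80.4% on slide 2 and 72.4% to 78.1% on slide 3, and the male vehicle arrays were the dimmest. All 10 hepatocyte markers (Alb, Hnf4a, Cps1 and others) were well above background on every array.

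Rdh16 and Rarb were each read by several probes whose values did not all move alike, so their sequences are shown here as the array files give them, without capitals because no part is singled out. The Rdh16 probes lie, on rat build rn3 as the files give it, at chr7:67786898-67786957 (plus strand), at chr7:67787082-67787141 (plus strand), and at bases 661606 to 661665 of the unplaced sequence of chromosome 7 (minus strand).
Rdh16 probe A_44_P132729: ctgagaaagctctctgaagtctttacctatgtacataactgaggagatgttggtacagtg
Rdh16 probe A_44_P497797: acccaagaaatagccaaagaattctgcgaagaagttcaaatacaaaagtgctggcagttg
Rdh16 probe A_44_P509070: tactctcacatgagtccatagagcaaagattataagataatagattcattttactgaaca
The Rarb probes lie at bases 324128 to 324187 and 319377 to 319436 of the unplaced sequence of chromosome 15 (plus strand), and within chr15:10485796-10490908 (minus strand), a stretch longer than the probe.
Rarb probe A_44_P404472: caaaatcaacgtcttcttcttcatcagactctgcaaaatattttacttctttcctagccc
Rarb probe A_43_P15897: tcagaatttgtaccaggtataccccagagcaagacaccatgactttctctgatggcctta
Rarb probe A_44_P243439: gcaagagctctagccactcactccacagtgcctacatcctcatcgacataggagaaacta
Probes of the same gene shared no run longer than 6 bases, so each reads its own stretch of sequence. Whether the third probe of either gene reads that gene or a close relative cannot be told from the files.

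Among the promoter windows searched, those of Cyp26a1 and Rarb alone held a direct repeat of the kind that retinoic acid receptors bind, and both are shown for that reason. The windows are those of RefSeq on build GRCr8, from 250 bases before to 50 bases after the gene's start, and 6 of the 7 genes have one. Rdh16 has none, so its promoter was not searched for any of the motifs below. The search asked for 2 cores with 5 bases between them, on both strands. A core could be AGGTCA, the usual receptor core, or its close spelling AGTTCA. The spellings GGGTCA and, as in the known Rarb element, GGTTCA were also taken, and any core could follow any other. The match in Rarb was thus fixed by the choice of spelling. That match gives the place of the known element and is no result of the search. The match in Cyp26a1 has AGTTCA for both cores, so it too depended on the spellings taken. The capitals mark the cores, at chr1:244883572-244883871 (plus strand) for Cyp26a1 and at chr15:11336142-11336441 (plus strand) for Rarb.
Cyp26a1 promoter: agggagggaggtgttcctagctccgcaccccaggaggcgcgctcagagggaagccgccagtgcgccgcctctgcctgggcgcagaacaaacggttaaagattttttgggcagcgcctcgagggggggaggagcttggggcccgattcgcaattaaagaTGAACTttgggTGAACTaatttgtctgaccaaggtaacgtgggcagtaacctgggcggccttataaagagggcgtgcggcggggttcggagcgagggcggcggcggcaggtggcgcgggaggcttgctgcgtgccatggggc
Rarb promoter: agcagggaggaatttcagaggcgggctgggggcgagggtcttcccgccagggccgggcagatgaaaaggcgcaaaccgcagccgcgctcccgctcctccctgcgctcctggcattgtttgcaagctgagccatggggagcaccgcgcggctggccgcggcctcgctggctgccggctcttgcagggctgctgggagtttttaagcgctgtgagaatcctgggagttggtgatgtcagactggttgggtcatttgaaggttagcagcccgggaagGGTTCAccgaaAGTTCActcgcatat
In Cyp26a1 the repeat spans bases -92 to -76 from the start, on the strand opposite the gene, and in Rarb it spans bases 25 to 41 after the start, on the gene's strand. Of all 33469 RefSeq windows 128, or 0.382%, held such a repeat. The same cores with 1 or 2 bases between them were in none of the 6 windows, and in 0.233% and 0.17% of all windows. AGAACA, the core that the glucocorticoid receptor binds, was in the Cyp26a1 window alone among the 6, at bases -168 to -163, and in 20.7% of all windows. The TATA box TATAAA was in the windows of Cyp26a1 (bases -31 to -26) and Rbp4 (bases -50 to -45), and in 14.2% of all windows.

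Levels below are log2 units of background-subtracted signal relative to the 75th percentile of the same array, so that 0 is the level that 3 in 4 probes stay under, and they compare arrays for a probe, never probes with each other. Differences were tested with limma over 30977 probes, and a probe was called where its Benjamini-Hochberg adjusted p was under 0.05.

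**Figure D1:**
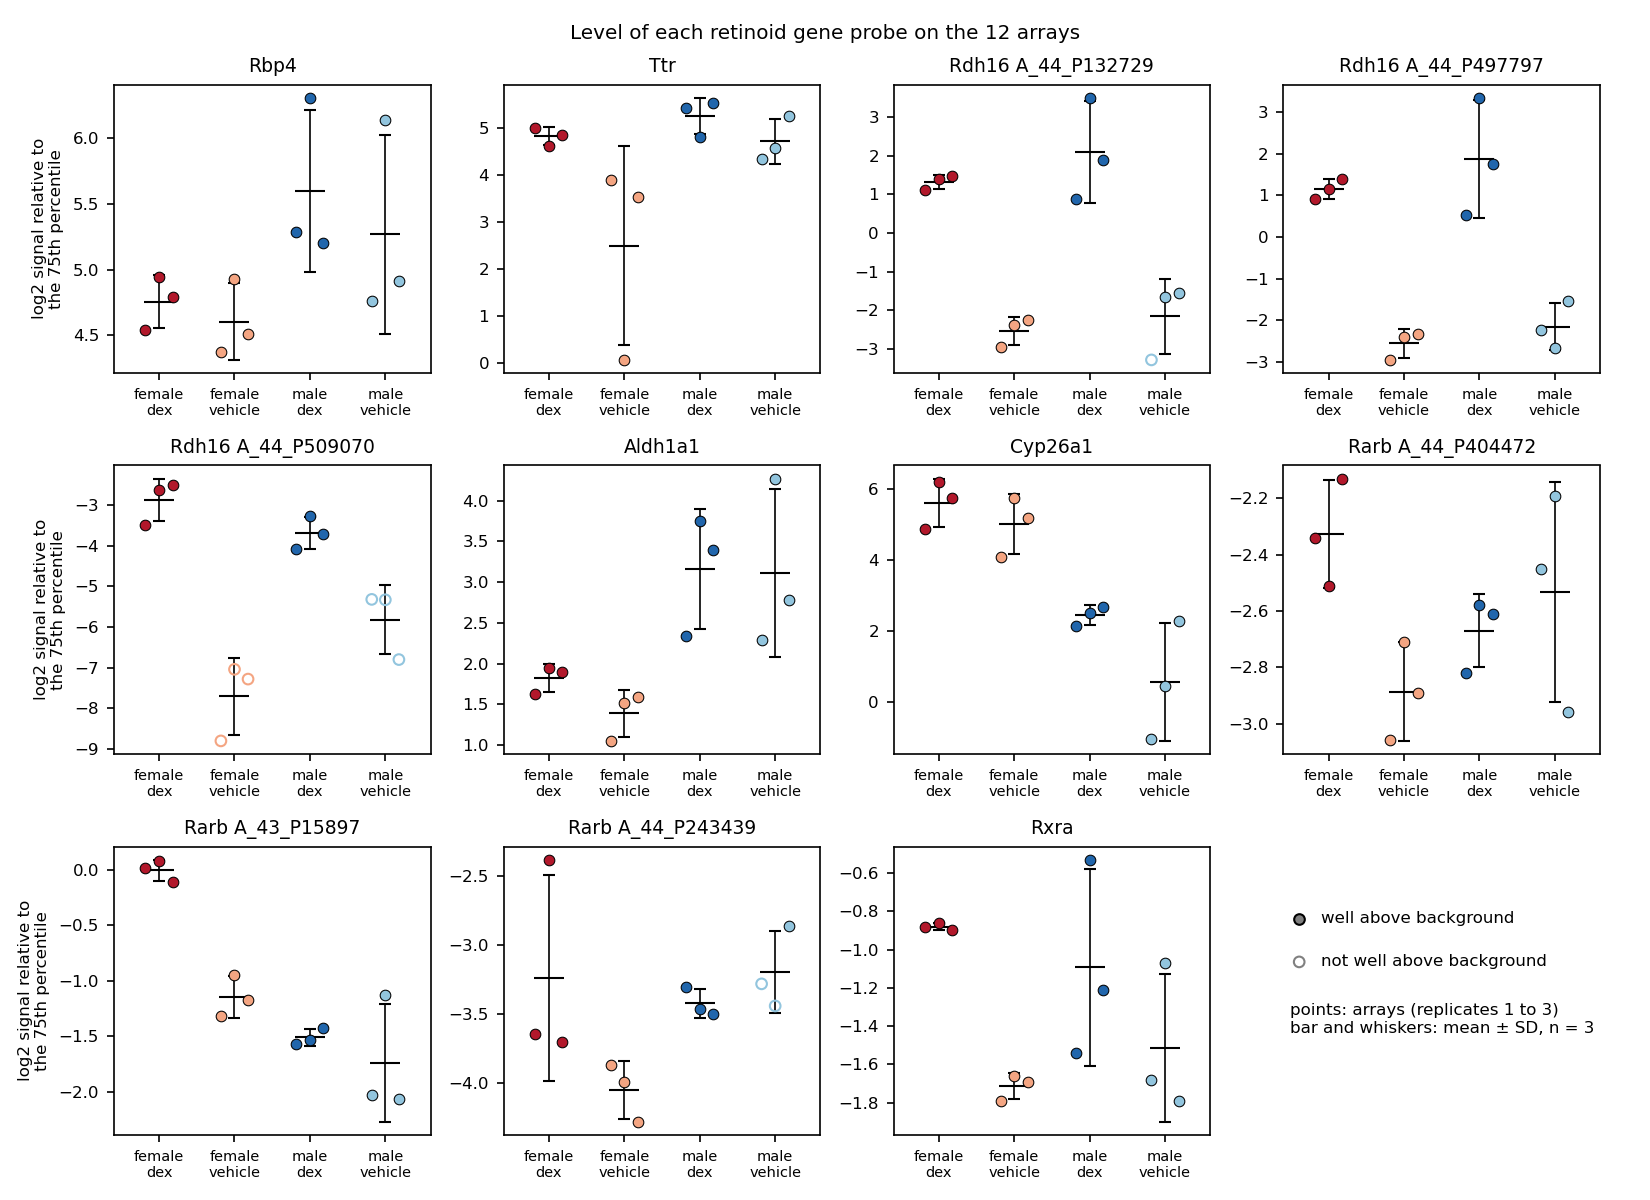
Level of each of the 11 probes on each array (vertical axis, log2 signal relative to the array's 75th percentile), with female dexamethasone, female vehicle, male dexamethasone and male vehicle from left to right; points are arrays, open where not well above background, and bars are mean ± SD (n = 3). The Rdh16 probes stand higher with dexamethasone in both sexes without overlap, and Cyp26a1 stands higher in females under either treatment.

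In both sexes the dexamethasone response of these genes was led by Rdh16. In females, 4 of the 11 probes were higher with dexamethasone (the 3 of Rdh16 and 1 of Rarb) and 0 were lower, where 3.82% of all probes were called. In males, 3 of the 11 probes were higher (all of Rdh16) and 0 were lower, where 10.2% of all probes were called. The Rdh16 probe matched by description, counted in both sexes, passed the filter on dim probes only through the dexamethasone groups. The median difference of the 11 probes, that probe included, was 0.83 in females and 0.42 in males, against -0.02 and -0.06 over all probes tested.

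Between the sexes, Cyp26a1 differed most of the 7 genes. With dexamethasone, 2 of the 11 probes were higher in females than in males (Cyp26a1 and 1 of Rarb) and 0 were lower, where 2.99% of all probes were called (927 of 30977, and 1743 with the replicate number as a block, with no other member called). With vehicle, Cyp26a1 was higher in females and Aldh1a1 and the third Rdh16 probe were lower, where 14% of all probes were called. The difference between the 2 responses, female minus male, was called for 0 of the 11 probes by limma, with 4 at an unadjusted p under 0.05, where 0.107% of all probes were called (33, and 6 with the replicate number as a block).

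**Figure D2:**
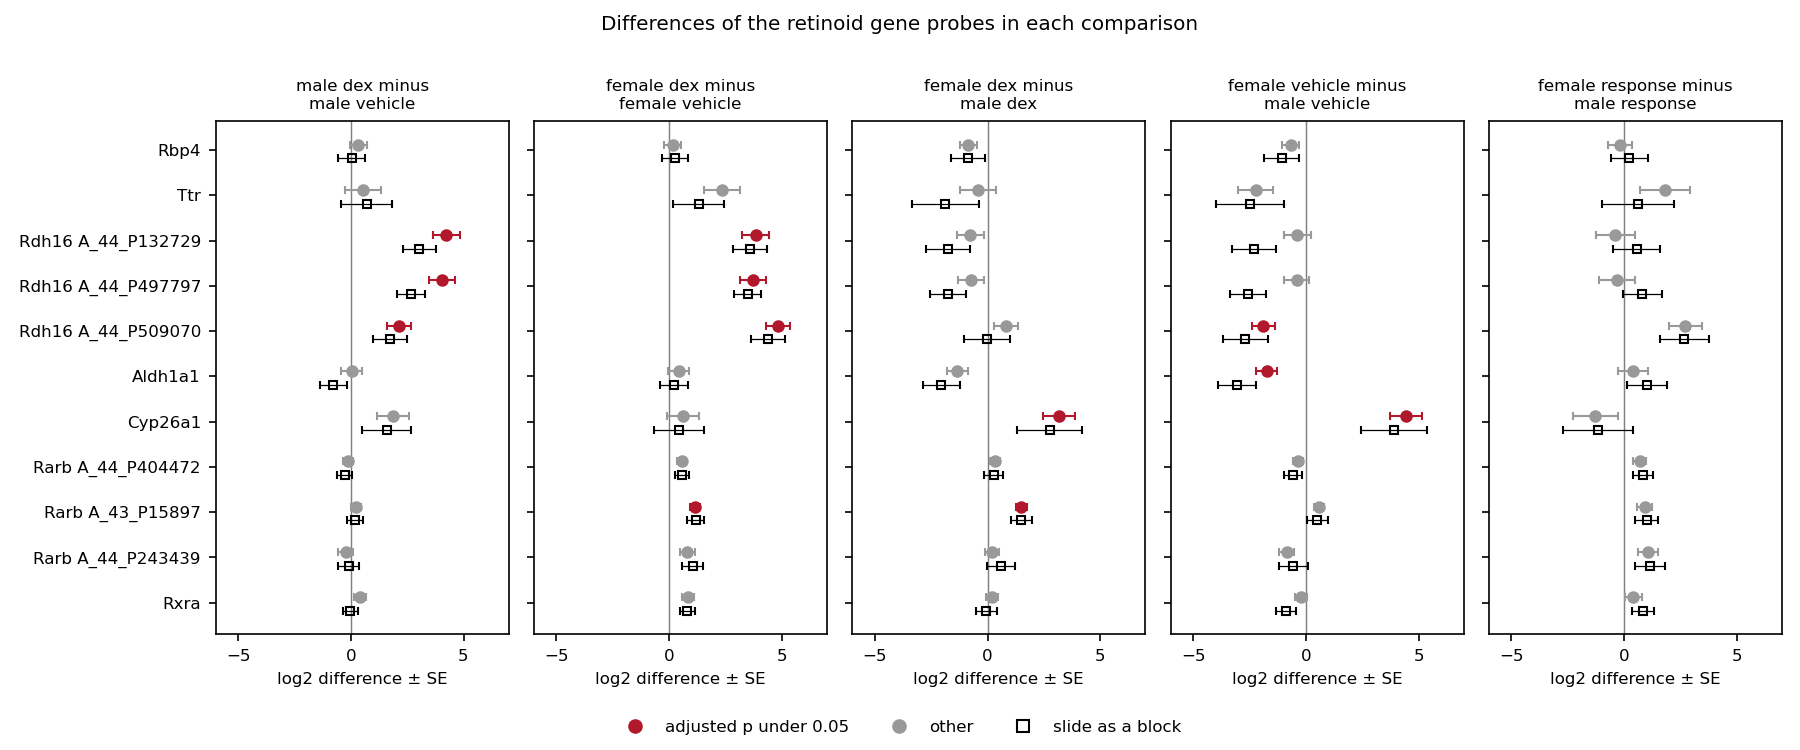
Difference of each probe in each comparison (horizontal axis, log2 difference ± SE; filled circles from the 12-array fit, red where the adjusted p was under 0.05, and open squares with slide as a block). The Rdh16 probes lie far to the right in both responses, and Cyp26a1 lies far to the right in both comparisons of females with males.

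Rbp4, the plasma carrier of retinol, was high on all arrays. Its level was 4.54, 4.94 and 4.79 in female dexamethasone replicates 1 to 3, against 4.37, 4.93 and 4.51 in female vehicle. In males it was 5.29, 6.31 and 5.20 with dexamethasone, against 4.76, 6.14 and 4.91 with vehicle. The groups of each sex overlap, and replicate 2 is the highest of its group in all 4 groups. The dexamethasone response was 0.15 ± 0.38 (SE, adjusted p = 0.932) in females and 0.33 ± 0.38 (adjusted p = 0.622) in males. Females were lower than males on all arrays with dexamethasone, by -0.85 ± 0.38, but the adjusted p was 0.267. With vehicle the difference of the sexes was -0.67 ± 0.38 (adjusted p = 0.269), and that of the responses, female minus male, was -0.18 ± 0.54 (adjusted p = 0.946).

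Ttr, the carrier of thyroxine and of the Rbp4 complex, had a level of 5.02, 4.63 and 4.87 in female dexamethasone arrays, against 3.91, 0.07 and 3.53 in female vehicle arrays. In males it was 5.44, 4.82 and 5.54 with dexamethasone, against 4.34, 4.58 and 5.26 with vehicle. In females the groups do not overlap, and female vehicle replicate 2 stands far below every other array. That array was dark around the Ttr spot. The 100 spots nearest to it had a median of 2.56 log2 units less than the other female vehicle arrays (a deviation of -2.56), whereas around the other 129 spots of the 11 probes in all groups, leaving out those of Ttr in female vehicle, this median lay between -0.49 and 0.36. Spots with a surrounding median below -1 made up 2.22% of that array (731 of 32903 spots), 0.0973% of male vehicle replicate 3 and 0 of the spots of the other 10 arrays. The Ttr spot carried no outlier mark. With that array the female response was 2.34 ± 0.78 (adjusted p = 0.142), and without it 1.12 (adjusted p = 0.0866), so the array moved the value by more than 1.5 times while neither value was called. The response in males was 0.54 ± 0.78 (adjusted p = 0.709). Females minus males with vehicle gave -2.23 ± 0.78 (adjusted p = 0.0828) with the array and -1.01 (adjusted p = 0.0762) without it, and with dexamethasone -0.42 ± 0.78 (adjusted p = 0.832). Female minus male response was 1.80 ± 1.11 (adjusted p = 0.593) with the array and 0.59 (adjusted p = 0.692) without it.

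**Figure D3:**
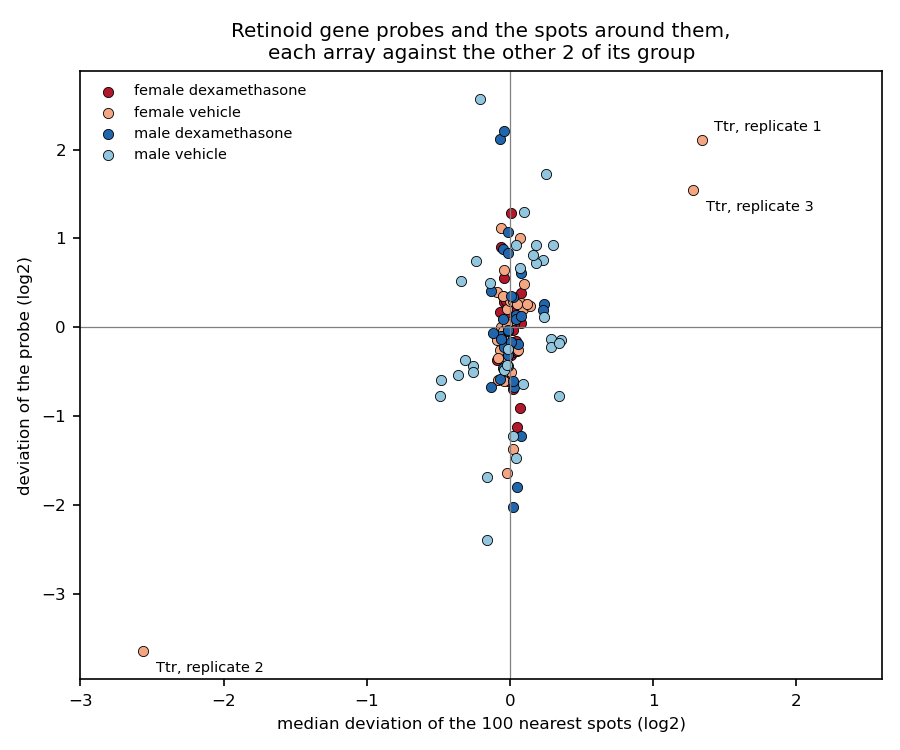
For each of the 11 probes on each array, the probe's deviation from the mean of the other 2 arrays of its group (vertical axis, log2) against the median of the same deviation over the 100 nearest spots (horizontal axis, log2), coloured by group. Ttr in female vehicle replicate 2 lies apart at -3.65 and -2.56, and Ttr in replicates 1 and 3 lies to the right because replicate 2 is part of their comparison.

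Rdh16, a microsomal dehydrogenase of liver that oxidises retinol and some steroids, rose with dexamethasone in both sexes. Probe A_44_P132729 had a level of 1.12, 1.39 and 1.47 in female dexamethasone arrays, against -2.94, -2.39 and -2.26 in female vehicle arrays. In males it was 0.88, 3.50 and 1.88 with dexamethasone, against -3.28, -1.65 and -1.54 with vehicle, where the first of the vehicle values was not well above background. The groups do not overlap in either sex, and male dexamethasone replicate 2 is the highest of the 12 arrays. The response was 3.85 ± 0.60 in females (14.5-fold, adjusted p = 0.0072) and 4.24 ± 0.60 in males (18.9-fold, adjusted p = 0.00274).

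Probe A_44_P497797, which lies beside it on the same chromosome, gave nearly the same picture. Its level was 0.91, 1.15 and 1.40 in female dexamethasone arrays, against -2.95, -2.39 and -2.32 in female vehicle arrays. In males it was 0.53, 3.35 and 1.75 with dexamethasone, against -2.24, -2.67 and -1.54 with vehicle. Here too the groups do not overlap, and the same male array is the highest. The response was 3.71 ± 0.57 in females (13.1-fold, adjusted p = 0.00637) and 4.03 ± 0.57 in males (16.3-fold, adjusted p = 0.00265).

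Probe A_44_P509070, the one matched by its description, was dim. It read -3.48, -2.64 and -2.51 in female dexamethasone arrays, against -8.80, -7.04 and -7.28 in female vehicle arrays, and in males -4.07, -3.28 and -3.70 with dexamethasone, against -5.32, -5.33 and -6.80 with vehicle. None of the vehicle values of either sex was well above background, and the treated and vehicle arrays do not overlap. Its signal was therefore at least 17.2-fold higher with dexamethasone in females and at least 1.1-fold higher in males, a bound of almost no change. These bounds set the brighter group's mean against the dimmest signal that still counted as well above background on the arrays of the other group. The calls belong to the differences of the values themselves, 4.83 ± 0.52 in females (adjusted p = 0.000796) and 2.13 ± 0.52 in males (adjusted p = 0.0278). The probe passed the filter on dim probes only through the dexamethasone groups, where it is high, so its calls are no separate support for Rdh16. The call in males was lost without male vehicle replicate 3 (adjusted p = 0.0562), male dexamethasone replicate 2 (0.0951) or male dexamethasone replicate 3 (0.0702), and with the normexp background correction (0.121).

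With slide as a block the Rdh16 response in males was 3.04 ± 0.74 for A_44_P132729 (adjusted p = 0.0787) and 2.68 ± 0.61 for A_44_P497797 (adjusted p = 0.0668), so that the calls were lost, where 1.85% of all probes were called with that block. The 1 male dexamethasone array that shared a slide with male vehicle arrays had the lowest Rdh16 level of its group by both probes. In females the block gave 3.59 ± 0.74 (adjusted p = 0.0641) and 3.48 ± 0.61 (adjusted p = 0.043), and A_44_P509070 gave 4.40 ± 0.76 (adjusted p = 0.043), where 0.998% were called. Within slide 3, which held all female dexamethasone arrays and 1 female vehicle array, the female responses were 3.59, 3.48 and 4.40, with adjusted p of 0.0264, 0.0329 and 0.0333. The lone vehicle array is assumed there to vary like the others. The within-slide responses in males, on slide 1, were the values with the block, at an adjusted p of 0.426 for both named probes.

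The sexes did not differ by a called amount at the named Rdh16 probes. Females minus males was -0.76 ± 0.60 and -0.72 ± 0.57 with dexamethasone (adjusted p = 0.553 and 0.549), and -0.38 ± 0.60 and -0.41 ± 0.57 with vehicle (adjusted p = 0.717 and 0.671). The difference between the responses was -0.39 ± 0.85 and -0.32 ± 0.80 (adjusted p = 0.92 and 0.932). A_44_P509070 gave 2.70 ± 0.73 for that difference (adjusted p = 0.15) and 0.81 ± 0.52 for females minus males with dexamethasone (adjusted p = 0.448). Its lower value in female than in male vehicle arrays (-1.89 ± 0.52, adjusted p = 0.0354) compares signals that were not well above background in either group.

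Aldh1a1, which makes retinoic acid from retinal, was lower in females. Its level was 1.63, 1.94 and 1.90 in female dexamethasone arrays, against 2.34, 3.75 and 3.39 in male dexamethasone arrays. With vehicle it was 1.05, 1.52 and 1.59 in females, against 2.29, 4.27 and 2.78 in males. All female arrays lie below all male arrays, and male vehicle replicate 2 is the highest. With vehicle the difference, females minus males, was -1.73 ± 0.47 (3.31-fold lower in females, adjusted p = 0.0353). With dexamethasone it was -1.34 ± 0.47 (adjusted p = 0.158), which was not called. The vehicle call was lost without male vehicle replicate 2 (-1.15, adjusted p = 0.073), without any of female vehicle replicates 1, 2 or 3 (adjusted p = 0.114, 0.075 and 0.0717), without female dexamethasone replicate 2 or 3 (0.0527 and 0.0534) and with slide as a block (-3.05 ± 0.83, adjusted p = 0.139). Dexamethasone changed Aldh1a1 by 0.43 ± 0.47 in females (adjusted p = 0.769) and 0.04 ± 0.47 in males (adjusted p = 0.965), neither called, and the responses differed by 0.39 ± 0.67 (adjusted p = 0.889). The groups overlap in males, and in females the treated arrays lie just above the vehicle arrays.

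Cyp26a1, the main liver enzyme that breaks down retinoic acid, was the member with the largest sex difference. With dexamethasone its level was 4.87, 6.21 and 5.76 in females, against 2.16, 2.52 and 2.69 in males. With vehicle it was 4.10, 5.76 and 5.19 in females, against -1.02, 0.45 and 2.28 in males. Every female array lies above every male array, and the male vehicle arrays spread widely, with a SD of 1.65 (n = 3). The difference with vehicle was 4.45 ± 0.71 (21.8-fold higher in females, adjusted p = 0.00399), and it was called without any 1 of the 12 arrays, at 3.65 to 5.30. With dexamethasone it was 3.16 ± 0.71 (8.94-fold, adjusted p = 0.0405).

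The dexamethasone call for Cyp26a1 lies near the threshold: it was lost in 8 of the 12 fits without 1 array, with differences of 2.86 to 3.53 over the 12 and adjusted p from 0.012 to 0.161. The call was lost without any of the 3 female or 3 male dexamethasone arrays, without female vehicle replicate 3 and without male vehicle replicate 2. With slide as a block the sex difference was 3.92 ± 1.46 with vehicle (adjusted p = 0.248) and 2.75 ± 1.46 with dexamethasone (adjusted p = 0.615), where 0.568% and 0.116% of all probes were called with that block. No slide held both sexes under the same treatment, so there is no within-slide value for either.

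In males Cyp26a1 was higher with dexamethasone by 1.89 ± 0.71 (adjusted p = 0.117), which was not called, and male vehicle replicate 3 overlaps the treated arrays. With the replicate number as a block it was 1.89 (adjusted p = 0.0409), and without male vehicle replicate 3, the overlapping array, it was 2.74 (adjusted p = 0.0148). It was not called in the other 11 of the 12 fits without 1 array (adjusted p up to 0.296). Nor was it called with slide as a block (1.59 ± 1.10, adjusted p = 0.513) or with array weights (adjusted p = 0.217). In females the difference was 0.60 ± 0.71 (adjusted p = 0.799), with overlapping groups. The difference between the responses was -1.29 ± 1.00 (adjusted p = 0.699).

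Rarb, the receptor that retinoic acid itself induces, rose with dexamethasone in females at its brightest probe. A_43_P15897 had a level of 0.01, 0.08 and -0.11 in female dexamethasone arrays, against -1.32, -0.95 and -1.17 in female vehicle arrays. In males it was -1.57, -1.53 and -1.42 with dexamethasone, against -2.03, -1.13 and -2.06 with vehicle. The treated female arrays lie together above all the other 9, and the male groups overlap. The response was 1.14 ± 0.23 in females (2.21-fold, adjusted p = 0.0248) and 0.23 ± 0.23 in males (adjusted p = 0.567). The difference between the responses was 0.91 ± 0.33 (adjusted p = 0.296), which was not called.

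With dexamethasone the same Rarb probe was 1.50 ± 0.23 higher in females than in males (2.83-fold, adjusted p = 0.00939), and with vehicle 0.59 ± 0.23 (adjusted p = 0.115). The female response was called in 7 of the 12 fits without 1 array, with adjusted p up to 0.106, and was lost without female vehicle replicate 1 (1.05, adjusted p = 0.106) or 3 (1.13, adjusted p = 0.0882) and without each female dexamethasone array (1.10 to 1.19). With slide as a block it was 1.17 ± 0.36 and no longer called (adjusted p = 0.198). The value within slide 3 is that same 1.17, set against a single vehicle array, and adds no replicate check. The sex difference with dexamethasone was 1.50 ± 0.48 with that block (adjusted p = 0.33), and without female dexamethasone replicate 2 it was 1.46 (adjusted p = 0.0515).

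The other Rarb probes were dimmer. A_44_P404472 read -2.34, -2.51 and -2.13 in female dexamethasone arrays, against -3.06, -2.71 and -2.89 in female vehicle arrays, and in males -2.82, -2.58 and -2.61 with dexamethasone, against -2.45, -2.19 and -2.96 with vehicle. A_44_P243439 read -3.64, -2.38 and -3.70 in female dexamethasone arrays, against -3.87, -3.99 and -4.28 in female vehicle arrays, and in males -3.30, -3.46 and -3.50 with dexamethasone, against -3.28, -3.44 and -2.86 with vehicle. For both probes the female groups do not overlap and the male groups do, and male vehicle replicates 1 and 2 were not well above background for A_44_P243439. The female responses were 0.55 ± 0.21 (adjusted p = 0.189) and 0.81 ± 0.32 (adjusted p = 0.21), positive as at A_43_P15897 but not called. In males they were -0.13 ± 0.21 (adjusted p = 0.724) and -0.23 ± 0.32 (adjusted p = 0.69). The differences between the responses were 0.69 ± 0.29 (adjusted p = 0.385) and 1.04 ± 0.45 (adjusted p = 0.392). Females minus males was 0.34 ± 0.21 and 0.19 ± 0.32 with dexamethasone (adjusted p = 0.422 and 0.815), and -0.35 ± 0.21 and -0.85 ± 0.32 with vehicle (adjusted p = 0.284 and 0.0961).

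Rxra, the partner of the retinoic acid receptors and of several other nuclear receptors, had a level of -0.88, -0.86 and -0.90 in female dexamethasone arrays, against -1.79, -1.66 and -1.69 in female vehicle arrays. In males it was -1.54, -0.53 and -1.21 with dexamethasone, against -1.68, -1.07 and -1.79 with vehicle. The female groups are tight and do not overlap, whereas the male groups overlap and spread more widely. The female response was 0.83 ± 0.26 (1.78-fold) with an adjusted p of 0.107, so it was not called where all 4 groups shared an estimate of the spread. It was called where only the female arrays entered the fit (0.83, adjusted p = 0.00674) and with array weights (0.86, adjusted p = 0.0036). It was not called with slide as a block (0.81 ± 0.34, adjusted p = 0.395) or with the replicate number as a block (0.83, adjusted p = 0.0541). The response in males was 0.42 ± 0.26 (adjusted p = 0.318), and the sexes differed by 0.21 ± 0.26 with dexamethasone (adjusted p = 0.725) and -0.20 ± 0.26 with vehicle (adjusted p = 0.634). Its responses, female minus male, differed by 0.41 ± 0.36 (adjusted p = 0.743).

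Other genes of the pathway were taken from a list of 64 genes, the named members included, of which 56 had a probe and 49 were tested, each by its brightest probe. In females 3 of the 49 rose with dexamethasone and 0 fell, or 6.12% of the list, where 3.82% of all probes were called. In males 3 rose and 2 fell, or 10.2%, the same share as over all probes. With the replicate number as a block 5 were called in females, where the added genes were Rarres1 (1.68, adjusted p = 0.00917) and Rbp7 (-2.02, adjusted p = 0.0435). Rbp7 lay near background, with a mean level of -6.99 in female dexamethasone arrays, of which 2 measured it well above background. In males 9 were called with the replicate block, where the added genes were Cyp26a1, Rdh7 (0.93, adjusted p = 0.0434), Adh1c (1.73, adjusted p = 0.0408) and Rarres2 (-0.68, adjusted p = 0.0498). The shares of all probes above, 3.82% and 10.2%, are from the fit without that block. The counts of 5 and 9 therefore cannot be set against them. The median difference over the list was 0.13 in females and 0.08 in males, against -0.02 and -0.06 over all probes. Beside Rdh16 and Rarb the gene that rose in females was Dhrs3, a retinal reductase that retinoic acid induces, by 1.23 ± 0.25 (adjusted p = 0.0239). Dhrs3 rose in males as well, by 1.71 ± 0.25 (adjusted p = 0.00313), and kept its call there with slide as a block (1.89, adjusted p = 0.048). The female call was lost with that block (1.31, adjusted p = 0.161) and in 5 of the 12 fits without 1 array, those without any female dexamethasone array or without female vehicle replicate 1 or 3 (adjusted p up to 0.105).

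In males Rarres1, a gene named for its response to retinoic acid, rose by 2.63 ± 0.51 (adjusted p = 0.0109). In females its difference was 1.68 ± 0.51 without overlap of the groups (adjusted p = 0.104), which was called with the replicate block, as given above, and with array weights (adjusted p = 0.00564). Its responses, female minus male, differed by -0.95 ± 0.72 (adjusted p = 0.687). Rxrg, a retinoid X receptor, fell by 1.01 in males (SE 0.25, adjusted p = 0.0313), a call that was kept in 8 of the 12 fits without 1 array and lost without male vehicle replicate 2, male dexamethasone replicate 1 or 3, or female dexamethasone replicate 3 (adjusted p up to 0.0891). With slide as a block the adjusted p became 0.22 for Rarres1 and 0.11 for Rxrg. Of the 4 carotenoid genes and the 8 esterification and hydrolysis genes tested, 0 were called by limma in either response. The difference between the responses was called for 0 of the 49 genes by limma, with 6 at an unadjusted p under 0.05.

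**Figure D4:**
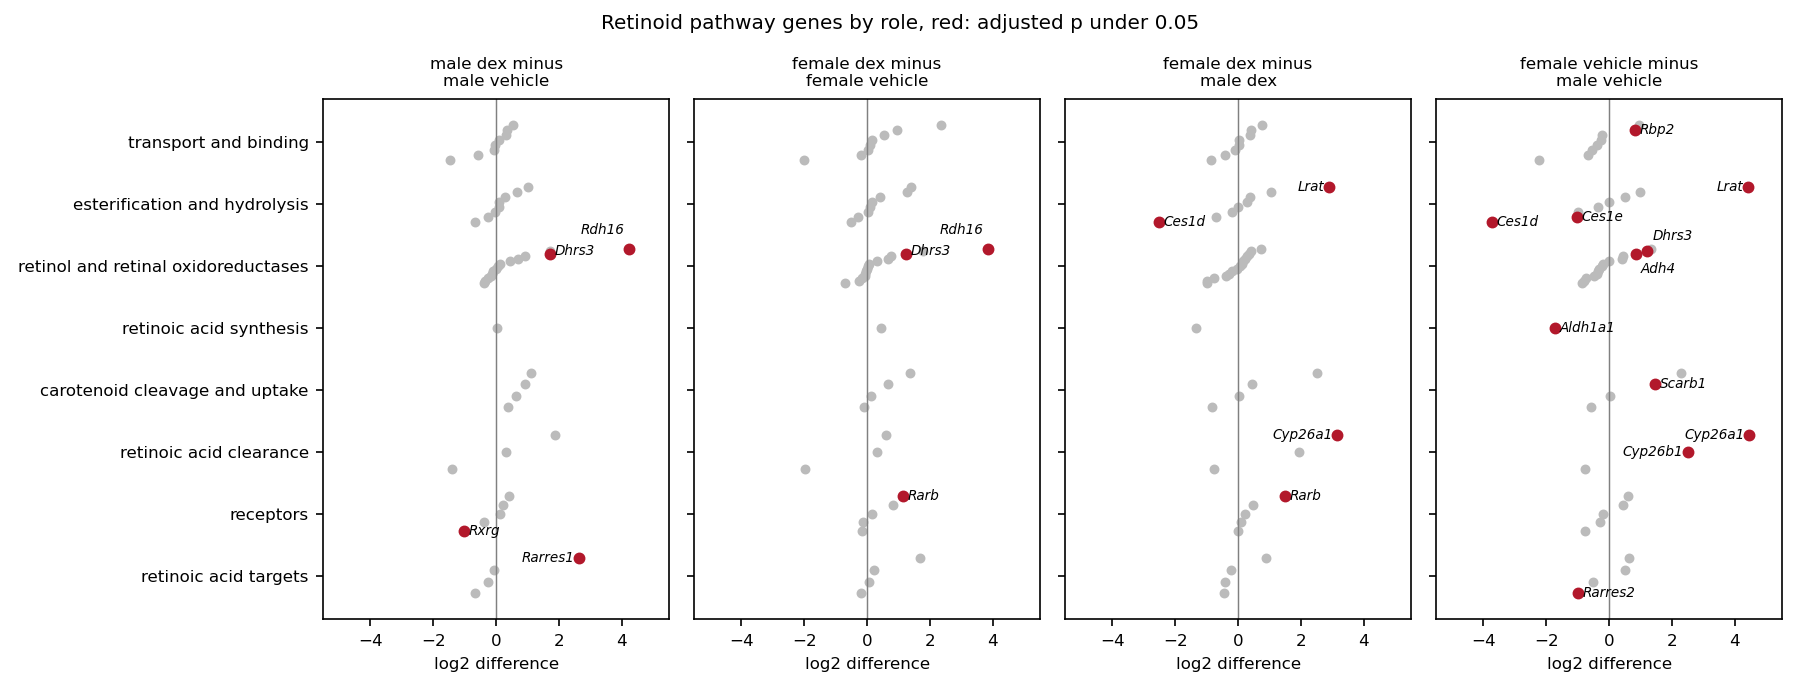
Differences of 48 of the 49 tested genes of the retinoid pathway list (horizontal axis, log2 difference), each drawn once under its first role, in 4 comparisons; red points with names had an adjusted p under 0.05. The clearance genes Cyp26a1 and Cyp26b1 and the esterifying enzyme Lrat stand far to the right in female vehicle against male vehicle.

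Between the sexes with vehicle, 7 of the 49 genes were higher in females and 4 lower, or 22.4% of the list, where 14% of all probes were called, with a median of -0.23 against -0.04 over all probes. With dexamethasone 3 were higher and 1 lower, or 8.16% of the list, where 2.99% of all probes were called, with a median of 0.05 against 0.02. The replicate block added the vehicle calls of Dhrs7 (-0.49, adjusted p = 0.0484) and Nrip1 (-0.52, adjusted p = 0.0445), which were lower in females. Lrat, which esterifies retinol for storage, was 2.90 ± 0.39 higher in females with dexamethasone (7.45-fold, adjusted p = 0.00502). With vehicle its signal was at least 6.37-fold higher in females (adjusted p = 0.000219), since no male vehicle array measured it well above background. Cyp26b1, a relative of Cyp26a1, was 2.50 ± 0.70 higher in females with vehicle (adjusted p = 0.0385), a call kept in 4 of the 12 fits without 1 array (1.74 to 3.11, adjusted p up to 0.123). It was kept without male vehicle replicate 3, male dexamethasone replicate 1 or 2 or female dexamethasone replicate 3.

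The liver carboxylesterases, which can release retinol from its esters, ran the other way. Ces1d was lower in females, by -2.53 ± 0.56 with dexamethasone (adjusted p = 0.0394) and by -3.72 ± 0.56 with vehicle (13.1-fold, adjusted p = 0.00317), and Ces1e was lower with vehicle, by -1.02 ± 0.25 (adjusted p = 0.0243). Among the oxidoreductases Dhrs3 (1.22 ± 0.25, adjusted p = 0.0115) and the alcohol dehydrogenase Adh4 (0.87 ± 0.19, adjusted p = 0.0148) were higher in females with vehicle. Scarb1, the lipoprotein receptor that takes up carotenoids, was 1.47 ± 0.33 higher (adjusted p = 0.0166), and Rarres2, which encodes chemerin, was lower (-0.98 ± 0.24, adjusted p = 0.0223). The intestinal retinol binding protein Rbp2 was called higher in females (adjusted p = 0.047), but no male vehicle array measured it well above background, the bound on its fold was under 1, the call was lost with the replicate number as a block (0.81, adjusted p = 0.0606) and in 11 of the 12 fits without 1 array (all but that without male vehicle replicate 1), and it reversed with the normexp background correction. The Ces1d call with dexamethasone was kept in 4 of the 12 fits without 1 array, those without any 1 of the male vehicle arrays or without female vehicle replicate 3 (over the 12, -2.84 to -2.01, adjusted p up to 0.149). The vehicle calls of Ces1e and Rarres2 were each kept in 9 of those fits, that of Adh4 in 10 and that of Scarb1 in 11. Those that lost them were the fits without male vehicle replicate 2 or female vehicle replicate 1 or 3 for Ces1e, male vehicle replicate 2 or female vehicle replicate 2 or 3 for Rarres2, female vehicle replicate 1 or 2 for Adh4, and female vehicle replicate 2 for Scarb1. With slide as a block 0 of the 49 genes were called between the sexes under either treatment. Of all probes 0.568% were called with that block with vehicle and 0.116% with dexamethasone, so the count of 0 is no result about the list.

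Markers of stellate cells and fibroblasts moved with the sex comparisons. Of 11 stellate cell and fibroblast markers tested, of 14 listed, 7 were higher in females with vehicle and 0 lower (median 2.21): Col1a2, Col3a1, Pdgfrb, Pdgfra, Lrat, Dcn and Vim. With dexamethasone 2 of the 11 were higher, Pdgfrb and Lrat, and 0 lower (median 1.02). Of all probes, 14% were called with vehicle and 2.99% with dexamethasone. The log2 of the summed signal of the list lay at 3.90 to 4.11 in female dexamethasone arrays, against 3.07 to 3.52 in male dexamethasone arrays, and at 3.76 to 4.36 in female vehicle arrays, against 2.80 to 3.20 in male vehicle arrays. The defining markers Gfap and Lum were not well above background on any array, and Acta2 had no named probe. Lrat stands in both lists, and in whole cultures more stellate cells and more Lrat RNA per cell cannot be told apart. Of 10 Kupffer cell markers 1 was higher in females with vehicle (Csf1r), and of 10 hepatocyte markers 2 were lower (Fgb and Apoc3). Both counts are close to the 14% of all probes called there and are no result about those cells. The part of these markers in the differences of Cyp26a1, Aldh1a1, Lrat and the other genes between the sexes was not tested. In the responses to dexamethasone Pdgfrb was lower in females (-1.13, adjusted p = 0.048), and in males Vim was higher (1.62, adjusted p = 0.00126) and Hgf was lower with no male array well above background.

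Likeness of profile was measured as the root mean square difference between the 12 levels of a member and those of another gene, each centred on its own mean, over 8346 named genes that were well above background on all arrays. It is a description of these 12 arrays, which share slides and normalization. The genes nearest to Rbp4 were Sh3yl1, Fbp1 and Decr2, each at 0.23 log2 units, where the SD of Rbp4 itself was 0.61. Nearest to Aldh1a1 (SD 0.99) were Apob at 0.29, Wfdc3 at 0.30 and Serpina6 at 0.31. Nearest to Rxra (SD 0.44) were Cd320 and Cebpa at 0.14 and Edc3 at 0.16.

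Cyp26a1 varied most, with a SD of 2.28. Nearest to it were Il33 at 0.98, Aspg at 1.12 and Cyp2c12, a female-predominant cytochrome P450 of rat liver, at 1.27. These distances are not scaled by the SD, so they do not show whether its neighbours are closer or farther than those of other members. Nearest to the brightest Rarb probe (SD 0.74) were Clic5 at 0.32, Acsbg1 at 0.35 and Paqr4 at 0.36. Nearest to Ttr (SD 1.47) were Adrm1 and Edem2 at 0.52 and Pias1 at 0.53, and these share the dark region of female vehicle replicate 2: their own spots deviated there by -4.54, -4.72 and -4.36, with surrounding medians of -3.36, -2.92 and -2.87. Rdh16 has no entry, since A_44_P132729 was not well above background on 1 of the 12 arrays.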

How the data were processed

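The 12 deposited array files hold spot intensity values of 41012 probes read by Agilent Feature Extraction 9.5.3.1, per the file headers (9.5 per the submitters' processing notes). The processed signal is an intensity from which the software had subtracted background within each array, per the file headers, with no scaling between arrays. The authors' deposited value table held the same intensity values (540216 of 540216). Here spots marked as outliers were left out, spots of a probe were averaged as log2 values of the deposited signal, and each array's 75th percentile over probes (508.7 to 1241 in signal) was subtracted. The 30977 probes that some group measured well above background on each of its 3 arrays were tested with limma 3.58.1 in R 4.3.3 (4 group means over 12 arrays, Benjamini-Hochberg adjustment, two-sided, threshold 0.05). Names were updated through a RefSeq table (10802 probes by accession, 5508 by symbol, 3691 by older symbol; 20929 kept the file's name, and 82 updates were refused because the table gave another chromosome). One probe described as similar to transthyretin lies on another chromosome and was not counted as Ttr.

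The 7 genes and the pathway and marker lists were chosen with earlier results of these data known. All 7 genes are given at every probe in every comparison. Of the wider list, up to 4 called genes per role with the largest difference are named in each comparison, and likeness names the 3 nearest genes. One gene of the wider list is in its counts but is not reported here by name or value. Samples of the same replicate number deviated together within each sex (correlations over 17468 probes of 0.54, 0.36 and 0.48 in females and 0.45, 0.59 and 0.40 in males) and between the sexes with dexamethasone (0.23, 0.23 and 0.30). The fit of 4 group means, which gave the calls unless an alternative is named, held no replicate term and so left this pairing out. Only the fits with the replicate number as a block used it. Between the sexes with vehicle the correlations were 0.18, 0.04 and 0.06, so there that block rests on little pairing. The pairing comes from the data, as the labels give numbers only.

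Alternatives were normexp background, quantile or median scaling, other filters on dim probes, outlier spots kept, 1 probe per gene, array weights, slide or replicate number as a block, fits of the compared groups only and fits without each array. Within-slide fits were added after the data were seen. On simulated data for the male response, over 30977 probes, 32.8%, 73.1% and 92.4% of changes of 1, 2 and 3 log2 units were recovered, with 12 false calls. The simulated arrays varied independently, with no slide effect and no deviation shared by replicate number. These figures therefore do not measure errors that come from slide or pairing. Precision is limited by the 3 arrays a group, since arrays have no read depth.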

Additional observations from a re-analysis of the deposited data

How the results depend on the processing

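Counts of called probes and, in brackets, of called genes among the 49 of the pathway list moved with the processing. The male response called 3159 probes [5 genes]. The probe count was 12610 with no filter on dim probes, 989 with array weights, 574 with slide as a block, 333 with the male arrays alone and 0 within slide 1. Its gene count was 8 with normexp, 3 for probes above background on all arrays, 9 with the replicate block, and 2 with slide as a block, with array weights and with the male arrays alone, and 0 within slide 1. The female response called 1182 [3]: 630 with quantile scaling, 577 above background on all arrays, 309 [0] with slide as a block, 5319 [9] with array weights, 2978 [7] with the female arrays alone and [5] with the replicate block. The difference of responses called 33 [0]: 0 with normexp, 320 [1] with quantile scaling, 15 with median scaling, 7427 [1] with no filter, 4 above background on all arrays, 4 with slide as a block, 6 with the replicate block and 93 with array weights. Females against males with dexamethasone called 927 [4]: 604 [2] with no filter, 36 [0] with slide as a block, 1743 with the replicate block, 4386 [13] with array weights and [1] with quantile scaling. With vehicle they called 4331 [11]: 14108 [22] with normexp, 14243 with no filter, 176 [0] with slide as a block, 2074 [6] with array weights and 1011 [3] with those groups alone.

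Leaving out 1 array gave 1409 to 4159 [3 to 8] in males, 354 to 1591 [1 to 5] in females, 0 to 664 [0 to 0] for the difference of responses, 205 to 1353 [1 to 4] between the sexes with dexamethasone and 1970 to 5276 [5 to 12] with vehicle. The replicate block added calls of Cyp26a1 among the 7 genes and, in the list, of Rdh7, Adh1c and Rarres2 in males, Rarres1 and Rbp7 in females, and Dhrs7 and Nrip1 between the sexes with vehicle, and it ended that of Rbp2 (0.81, adjusted p = 0.0606). The difference of the sexes with vehicle reversed for Rdh16 probe A_44_P509070 with quantile scaling (0.39, adjusted p = 0.575) and for Rbp2 with normexp (-0.52, adjusted p = 0.0443); the cause was not tested. The named Rdh16 probes kept their direction in both sexes under every alternative run, and kept their call in both without any 1 array.

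Scaling moved the median of all probes in the male response to -0.18 (median) and -0.24 (normexp), in females against males with vehicle to -0.36 (normexp) and 0.10 (quantile), against -0.06 and -0.04. The share of called probes that were higher was 52.5% in the male response, and 67.2%, 33.1% and 24% with quantile, median and normexp. For females it was 73.4%, and 62.5% with median scaling. For the difference of responses it was 69.7%, and 12.2% and 80% with quantile and median scaling. Between the sexes it was 41% with dexamethasone, and 23.9% with normexp, and 44.7% with vehicle, and 63.6% and 13.3% with quantile and normexp.

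Slide and sex overlap in this design, with 3 samples a group, and dim male vehicle arrays set the limit for low probes such as A_44_P509070.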
